A study of Mus musculus with 16 samples.

Results

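The genes examined here encode the subunits of the mitochondrial respiratory chain, complexes I to IV, and of the ATP synthase, complex V. Members were taken by gene symbol from the array annotation: symbols starting with Nduf (the assembly factors named Ndufaf left out), Uqcr, Atp5, Cox4, Cox5, Cox6, Cox7 or Cox8, and the succinate dehydrogenase genes Sdha to Sdhd, of which Sdhb, Sdhc and Sdhd were found. This gave 80 of the 16593 named genes on the array, measured by 99 probes. They divide into 35 genes for complex I, 3 for complex II, 8 for complex III, 18 for complex IV and 16 for complex V. Of the 80, 69 were detected on all 16 arrays and tested among 8419 genes.

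The respiratory chain sits in the inner mitochondrial membrane. Complex I (NADH dehydrogenase) and complex II (succinate dehydrogenase) pass electrons to ubiquinone, complex III passes them on to cytochrome c, and complex IV (cytochrome c oxidase) gives them to oxygen. Complexes I, III and IV pump protons across the membrane, and complex V uses the proton gradient to make ATP, most of which neurons spend on ion pumping and synaptic transmission. All genes measured here are coded in the nucleus; the subunits coded in mitochondrial DNA were not analysed here.

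RNA came from the left and the right medial prefrontal cortex (mPFC) of young adult male C57BL/6 mice in 3 groups. Control mice were not defeated. The other mice went through chronic social defeat, in which an aggressive CD-1 mouse attacks the mouse placed in its cage over repeated sessions, and were then split by a social interaction test into resilient mice, which kept a social preference, and susceptible mice, which avoided the other mouse. Tissue was taken on the day after that test. Resilient and susceptible mice together are called defeated mice here. Each side was measured on 2 control, 3 resilient and 3 susceptible arrays. The labels give 7 mice for each group, whereas the methods give larger numbers for control and resilient mice, and which mice make up each array is not stated. RNA of individual tissues was pooled in equal amounts before hybridization, so the spread between arrays, against which all p-values here are measured, can be smaller than the spread between mice. In tissue RNA, fewer cells of a type and less RNA per cell cannot be told apart.

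Values are log2 signals after quantile normalization, which makes the arrays alike in how their signals are distributed. A gene was called when its adjusted p in limma's moderated test (Benjamini-Hochberg over the 8419 genes) was below 0.05. The cortical markers Slc17a7, Camk2a and Tbr1 were detected on all 16 arrays, as were the interneuron markers Gad1 and Pvalb and the myelin gene Mbp, whereas the excitatory neuron marker Neurod6 was detected on 2. The mean raw signal was 466 to 567 on the first 8 arrays of the deposited table and 376 to 463 on the last 8. All 4 control arrays stand among the first 8, together with replicate 1 of each defeated group and side, so position in the table is unevenly spread over the groups.

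Left and right mPFC were compared first, since hemispheric difference was the question of the study. No subunit gene was called between the sides in any of the 3 groups of mice with the fit used here. In control mice 0 of 69 members were called, where 0.0119% of all genes were, and in resilient mice 0 of 69, where 0.0356% were. In susceptible mice 5.21% of all genes were called between left and right, and again 0 of 69 members. Left and right tissue came from the same mice, and with the left and right arrays of one replicate number as a random block, or with cyclic loess in place of quantile normalization, 1 member was called there, Atp5pb. At an unadjusted p below 0.05 the members past the threshold were 1 of 69 in control, 2 of 69 in resilient and 5 of 69 in susceptible mice. Of all 8419 genes 420, 368 and 1403 were past it, a larger share in each group. The median left minus right difference over the members was 0.01, 0.02 and -0.02 in the 3 groups, on the log2 scale.

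The lowest value in susceptible mice was that of Atp5pb, a stalk subunit of the ATP synthase, at -0.21 (limma adjusted p = 0.067), and the highest that of Atp5h, another stalk subunit, at 0.18. In that comparison a median 95% interval reached 0.14 to either side of a member's value, and the widest reached 0.26. Differences between the sides smaller than these could not be told from 0 with these arrays. The intervals are not adjusted over the 8419 genes, so larger differences could also go uncalled, as those of Atp5pb and Atp5h did. The same comparison called all 7 oligodendrocyte markers tested as lower on the left, with a median of -0.58, and all 5 meningeal fibroblast markers as higher there, with a median of 0.65, while no member was called beside them in the same fit.

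**Figure D1:**
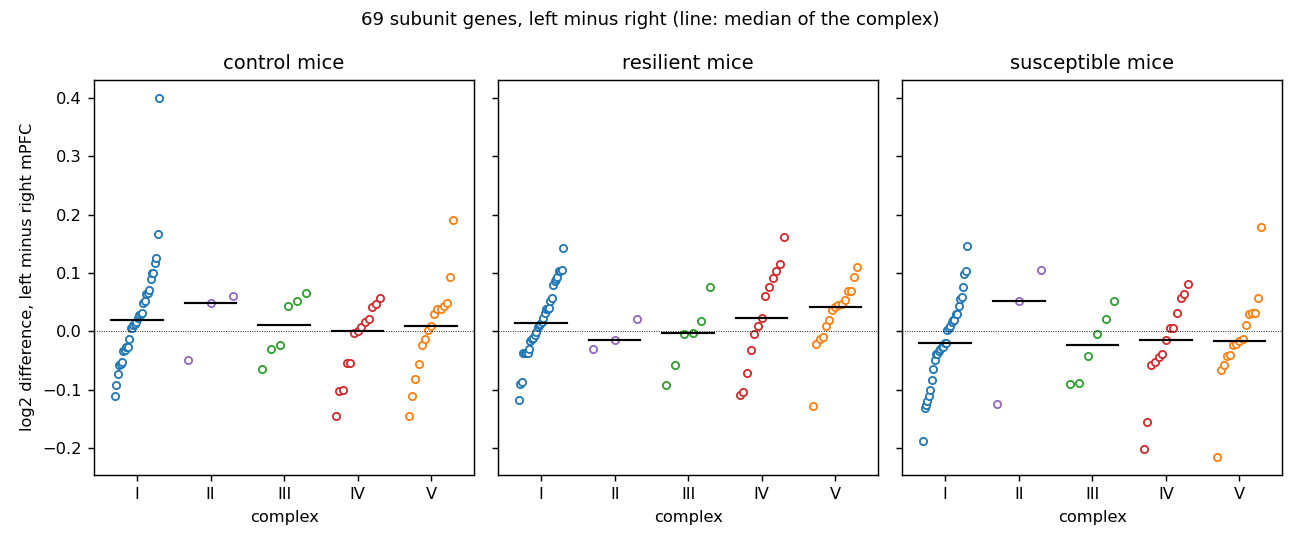
Left minus right log2 difference of each of the 69 tested subunit genes (open circles), by complex and by group of mice; black lines are medians of a complex. The members lie around 0 in all 3 groups, with Ndufb4 in control mice, at 0.40, the farthest from it.

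The side differences themselves were also compared between groups. The left-right difference of susceptible mice against that of control mice was called for 2.63% of all genes and for 0 of 69 members, of which 2 had an unadjusted p below 0.05. Against resilient mice it was called for 2.15% of all genes and again for 0 of 69 members, with 4 at an unadjusted p below 0.05. The numbers of all genes past that unadjusted threshold are not given here for either comparison. Ndufb4 had the lowest value of the first comparison, at -0.43, and Cox5b, a subunit of cytochrome c oxidase, of the second, at -0.30.

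Defeated mice were then compared with controls over both sides. Of the members 7 of 69 were called lower, where 5.96% of all genes were called lower, and 1 of 69 was called higher, where 5.27% were, and in both directions together 11.2% of all genes were called. The lower members were Atp5a1, Ndufb5, Uqcrb, Ndufb2, Cox7b, Cox7a1 and Ndufb10, and the higher one was Uqcrc2. The share of members called lower was above that of all genes and the share called higher below it, and neither difference was tested. The calls are spread over complexes I, III, IV and V. Over all 69 members the median was -0.01, against 0.01 over all genes, with 32 values above 0 and 37 below. An unadjusted p below 0.05 was found for 18 of 69 members and for 2236 of 8419 genes, nearly the same share.

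**Figure D2:**
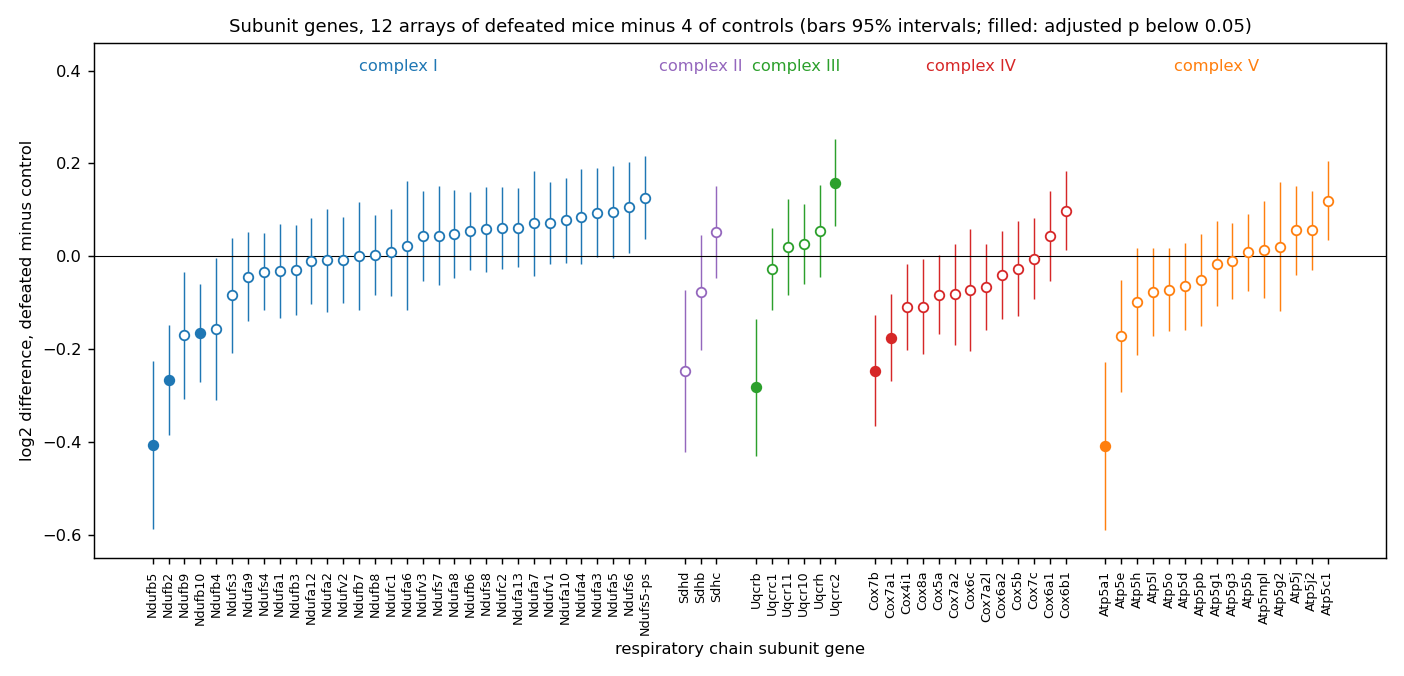
Log2 difference between the 12 arrays of defeated mice and the 4 of control mice for the 69 tested subunit genes, ordered by complex and value; bars are 95% intervals from the fit and filled circles have an adjusted p below 0.05. Complexes I and V spread to both sides of 0, and 11 of the 13 complex IV genes lie below it.

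In complex I, 19 of 32 members lay above 0 and 13 below, with a median of 0.02, and 3 were called, all lower: Ndufb5, Ndufb2 and Ndufb10. All 3 are accessory subunits of the membrane arm, which carry no redox centre. Ndufb5 was at 10.73 and 10.62 on the left control arrays and at 10.39 and 10.62 on the right ones, and ran from 9.89 through a median of 10.20 to 10.47 on the 12 arrays of defeated mice. Of the defeated arrays 9 of 12 were below the lowest control array, and the ranges overlapped. The difference was -0.41 ± 0.09 (SE), or 0.754-fold (limma adjusted p = 0.0033).

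Ndufb2 was at 9.15 and 8.87 on the left control arrays and at 8.94 and 9.05 on the right ones, and ran from 8.54 through 8.72 to 8.97 in defeated mice. All but 1 of the defeated arrays, 11 of 12, lay below the lowest control. Its difference was -0.27 ± 0.06 (limma adjusted p = 0.0031). Ndufb10 was at 8.59, 8.62, 8.66 and 8.36 on the control arrays and ran from 8.28 through 8.41 to 8.53 in defeated mice, and here right control replicate 1 was highest and right control replicate 2 lay inside the defeated range. Its difference was -0.17 ± 0.05 (limma adjusted p = 0.037).

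The core subunits of complex I, which hold the flavin and iron-sulfur clusters, gave no call. Ndufs3 was at -0.08, Ndufv2 at -0.01, Ndufs7 at 0.04, Ndufs8 at 0.06 and Ndufv1 at 0.07, with adjusted p from 0.29 to 0.93. The highest value in the complex was 0.13, for Ndufs5-ps, which the annotation lists as a transcribed pseudogene of a subunit gene. Ndufa4, the member of this symbol family with the brightest probe (mean 13.67) and now counted with cytochrome c oxidase, was at 0.09.

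Promoter windows of Ndufb5, Ndufb2 and Cox7b are shown as examples of members called lower in defeated mice, and that of Ndufb4, which was at -0.16 and not called in that comparison, because it holds one of the motifs searched. Each window has the 150 bases before the start used in the RefSeq promoter table (GRCm38.p6), which for Ndufb5 lies inside the annotated gene, so that the last 6 bases of its window belong to the gene. Capitals mark the letters GCGCANGCG, the core that the mitochondrial gene regulator NRF1 binds, on either strand; these letters were widened after the windows had been read.
Ndufb5, chr3:32736913-32737062, plus strand: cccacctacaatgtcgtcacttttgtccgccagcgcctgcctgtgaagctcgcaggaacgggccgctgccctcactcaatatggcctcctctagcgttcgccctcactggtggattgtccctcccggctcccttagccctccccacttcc
Ndufb2, chr6:39592415-39592564, plus strand: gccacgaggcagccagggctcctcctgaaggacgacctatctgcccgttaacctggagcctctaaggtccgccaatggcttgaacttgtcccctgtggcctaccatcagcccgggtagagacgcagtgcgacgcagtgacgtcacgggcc
Cox7b, chrX:106015550-106015699, plus strand: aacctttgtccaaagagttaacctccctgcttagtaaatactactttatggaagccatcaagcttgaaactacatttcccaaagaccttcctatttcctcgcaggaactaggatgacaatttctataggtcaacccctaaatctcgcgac
Ndufb4, chr16:37654369-37654518, minus strand: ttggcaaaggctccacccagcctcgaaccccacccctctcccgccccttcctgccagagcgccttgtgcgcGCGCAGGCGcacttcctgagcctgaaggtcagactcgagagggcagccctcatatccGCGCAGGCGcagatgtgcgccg
Only the Ndufb4 window holds the letters, in 2 places that do not overlap, and the windows of Ndufb10 and Cox7a1 hold none. Of the 65 members with an entry in the promoter table, 10 hold GCGCANGCG, which is 15.4%, against 4.26% of all 32851 windows of that length. CCGGAAG, the core of ETS factors such as GABPA, stood in 10 of 65 (15.4%, against 5.52%), AAGATGGC, which YY1 binds, in 1 (1.54%, against 0.861%), and TCAAGGTCA, which estrogen-related receptors bind, in 1 (1.54%, against 0.18%). A member was counted when any of its windows held the letters, while the 32851 windows were each counted singly. This can raise the share of members, so the 2 shares are not fully alike in kind. A match is a description of letters and not a binding site.

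In complex II no member was called. Sdhd, a membrane anchor subunit, had the lowest value, at -0.25 ± 0.08, with a limma adjusted p of 0.059. Sdhb, the iron-sulfur subunit and the brightest of the 3 (mean 10.64), was at -0.08, and Sdhc, the other anchor, was at 0.05.

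In complex III, 1 of 6 members was lower and 1 was higher. Uqcrb, a small subunit near the ubiquinone site, was at 11.42 and 11.31 on the left control arrays and at 11.61 and 11.26 on the right ones, and ran from 10.78 through 11.16 to 11.29 in defeated mice. Of these arrays 10 of 12 were below the lowest control. The difference was -0.28 ± 0.07 (limma adjusted p = 0.011).

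Uqcrc2, a core subunit of the matrix side, moved the other way. It was at 12.58 and 12.53 on the left control arrays and at 12.42 and 12.61 on the right ones, and ran from 12.60 through 12.72 to 12.76 in defeated mice. The highest control array was passed by 10 of 12. The difference was 0.16 ± 0.05 (limma adjusted p = 0.023), and when arrays were instead only shifted to one median log2 signal it was -0.01 and not called (adjusted p = 0.955). That choice put the median of all genes at -0.16 and that of the members at -0.20, so differences there are read against the former. Uqcrc1, the other core subunit, was at -0.03, and Uqcr10, the brightest (mean 13.29), at 0.03.

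In complex IV, 11 of 13 members lay below 0, with a median of -0.07, and 2 of the 13 were called, both lower. Cox7b, a small accessory subunit, was at 9.50 and 9.44 on the left control arrays and at 9.27 and 9.63 on the right ones, and ran from 9.01 through 9.26 to 9.32 in defeated mice. Right control replicate 1 lay inside the defeated range, and 6 of 12 arrays were below it. The difference was -0.25 ± 0.06 (limma adjusted p = 0.0062).

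Cox7a1, the isoform of subunit 7a that is abundant in heart and skeletal muscle, was at 7.55 and 7.57 on the left control arrays and at 7.57 and 7.54 on the right ones, and ran from 7.18 through 7.42 to 7.53 in defeated mice. All 12 of these arrays were below all 4 control arrays. The difference was -0.18 ± 0.05 (limma adjusted p = 0.013). Its probe was dim, with raw signals of 133 to 232, and Cox7a2, the widely expressed isoform, was at -0.08 and not called.

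The other complex IV genes were not called. Cox4i1, the widely expressed subunit 4, was at -0.11, and Cox8a, the brightest (mean 13.48), also at -0.11. Cox6b1 was highest, at 0.10, and Cox6a1, the widely expressed subunit 6a, was at 0.04. For both genes another detected probe had the opposite sign in this comparison. Cox7a2l, a factor that joins complexes III and IV rather than a subunit of either, was at -0.07.

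In complex V, 1 of 15 was called. Atp5a1, the alpha subunit of the catalytic head, was at 11.29 and 11.29 on the left control arrays and at 11.00 and 11.51 on the right ones, and ran from 10.53 through 10.87 to 11.17 in defeated mice. The ranges overlapped through right control replicate 1, with 9 of 12 arrays below it. The difference was -0.41 ± 0.09, or 0.753-fold (limma adjusted p = 0.0031).

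Its partner Atp5b, the catalytic beta subunit and the brightest member of the complex (mean 14.45), was at 0.01, and after quantile normalization such bright probes have little room to vary between arrays. Atp5c1, the gamma subunit of the rotor, was at 0.12 (limma adjusted p = 0.061), and Atp5e, the epsilon subunit, at -0.17 (limma adjusted p = 0.057). The 3 genes of the membrane ring subunit, Atp5g1, Atp5g2 and Atp5g3, were at -0.02, 0.02 and -0.01.

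Arrays of defeated and control mice did not overlap for 3 members. Every defeated array was below every control array for 2 of 69, Cox7a1 and Atp5e, where 1.14% of all genes behaved so, and above for 1 of 69, Atp5c1, where 1.47% did. Atp5c1 was at 12.51, 12.68, 12.66 and 12.64 on the control arrays and from 12.68 to 12.83 on the others, a gap in the third decimal. The gap of Atp5e was also in the third decimal, with the lowest control array at 7.825 and the highest defeated one at 7.824. Its probe was dim, with raw signals of 152 to 285. Relative to the control mean, its defeated arrays stood at -0.06 among the first 8 and at -0.23 among the last 8.

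**Figure D3:**
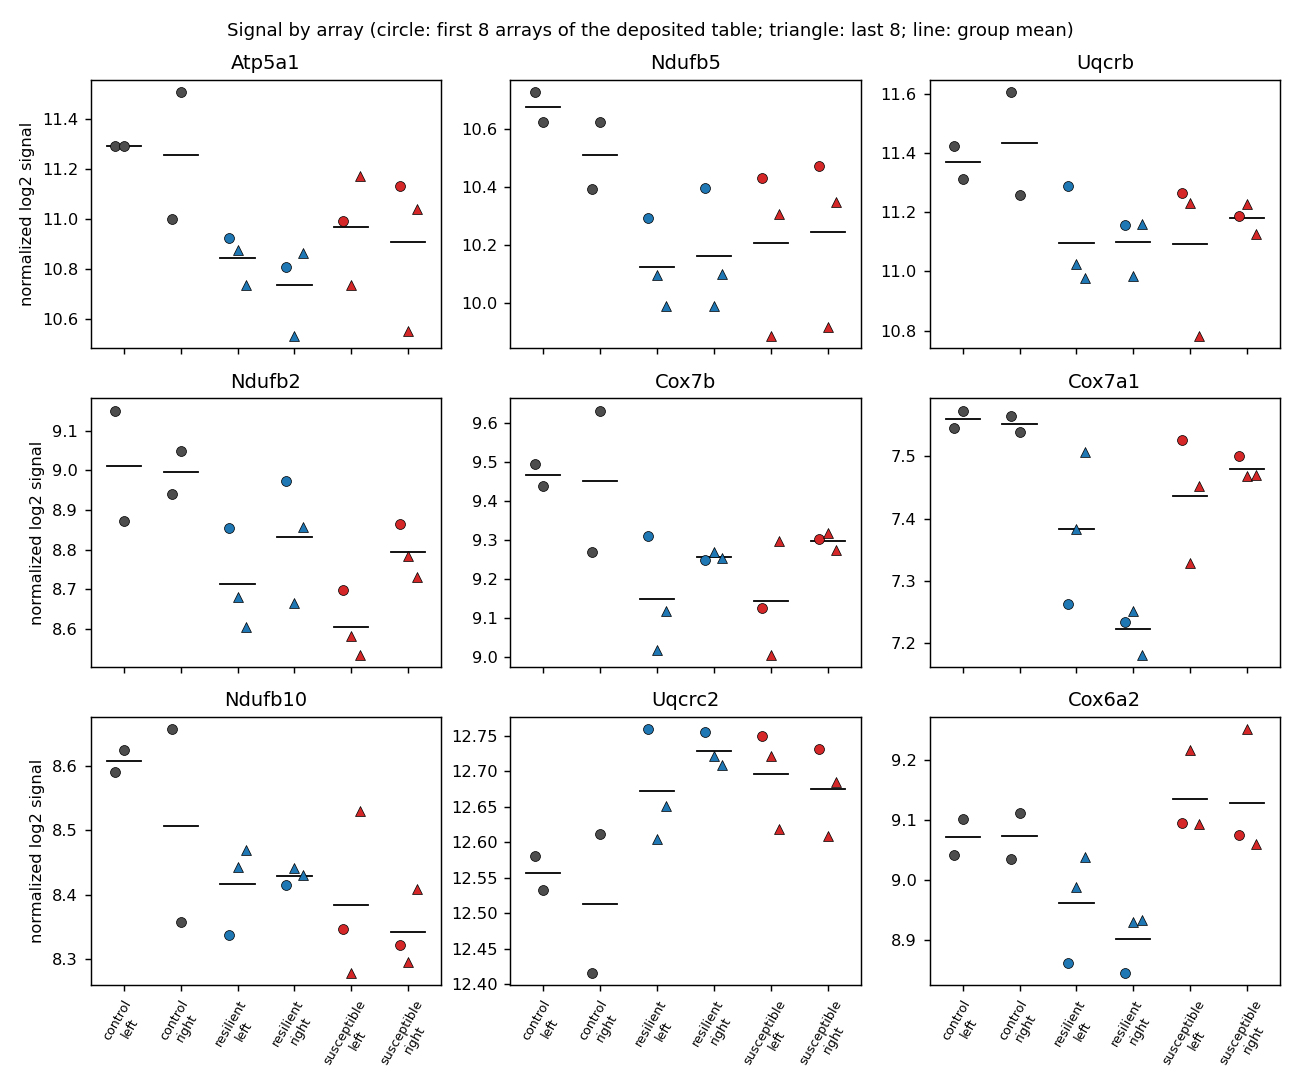
Normalized log2 signal of the 8 members called between defeated and control mice, and of Cox6a2, on each of the 16 arrays, by group and side; circles are the first 8 arrays of the deposited table, triangles the last 8, and lines are group means. Each panel has its own axis. For Ndufb5 the circle is the highest of the 3 points in each defeated group and side.

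Position in the deposited table moved with these values. For 5 of the 8 called members (Ndufb5, Ndufb2, Uqcrb, Atp5a1 and Cox7b) the defeated arrays among the first 8 were nearer the controls than those among the last 8. For Ndufb5 the first stood at -0.19 relative to the control mean and the last at -0.51, for Ndufb2 the values were -0.16 and -0.32, for Uqcrb -0.18 and -0.34, for Atp5a1 -0.31 and -0.46, and for Cox7b -0.21 and -0.26. Cox7a1 was at -0.18 in both. Ndufb10, at -0.20 and -0.15, and Uqcrc2, at 0.21 and 0.13, were nearer the controls on the last arrays. With position (first or last 8) as a block in the fit, 1 of 69 members was called, Uqcrc2 (0.21). The 7 lower members kept their sign there, with differences from -0.31 to -0.16. The share of all genes called in that fit is not given here, so the count does not describe the members as a set. Since no control array stands in the last 8, stress and position cannot be told apart there.

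The counts also moved when single arrays were left out, upward as well as downward. The share of all genes called in those fits is not given here. The counts therefore describe how stable the calls were and not the members as a set. Leaving out left control replicate 1 lowered the number of members called from 8 to 3, and leaving out right control replicate 1 or 2 lowered it to 4 each.

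Markers of cell types moved in the same comparison. Interneuron markers were lower for 2 of 5, Pvalb (-0.24) and Gad1 (-0.23), and their summed signal was 22369 to 24046 in control, 19584 to 21601 in resilient and 19761 to 22519 in susceptible mice. Both blood genes tested were higher, Hba-a1 at 0.80 and Alas2 at 0.41. Of the 4 general neuron markers, 1 was lower, Nefm at -0.52. Single markers were also called for microglia (P2ry12, -0.33, 1 of 7), astrocytes (Slc1a3, -0.13, 1 of 5), oligodendrocytes (Mog, 0.22, 1 of 7), meningeal fibroblasts (Mgp, 0.18, 1 of 5) and striatum (Ppp1r1b, 0.31, the 1 tested), and for none of the 4 endothelial and 3 cortical excitatory neuron markers. The part of these in the subunit values was not tested.

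Each defeated group was then set against the control mice of the same side, in 4 comparisons that share control arrays in pairs. On the left, resilient mice had 2 of 69 members called, both lower, where 1.33% of all genes were called lower and 2.7% in all. Ndufb5 was at -0.55 ± 0.14 (limma adjusted p = 0.03), with the 3 resilient arrays at 10.29, 10.10 and 9.99, all below the 2 control arrays. How many of all genes were separated in this way is not given here. Ndufb4, another accessory membrane arm subunit, was at -0.43 ± 0.12 (limma adjusted p = 0.048). Leaving out 1 array at a time, both calls held in 1 of 5 fits, that without left resilient replicate 1, with differences from -0.63 to -0.48 for Ndufb5 and from -0.59 to -0.28 for Ndufb4.

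Ndufb4 stood at 9.38 and 9.34 on the left control arrays, at 9.26, 8.89 and 8.65 on the left resilient ones and at 9.23, 8.96 and 8.85 on the left susceptible ones. On the right it was at 8.90 and 9.01 in control mice, 9.07, 8.86 and 9.13 in resilient and 9.05, 8.97 and 9.10 in susceptible mice. The 2 left control arrays were thus the highest of all 16, and the right control arrays lay within the range of the defeated ones. Its left-right difference in control mice was 0.40 (limma adjusted p = 0.589).

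On the right, resilient mice also had 2 of 69 called, both lower, where 1.08% of all genes were called lower and 2.26% in all. Atp5a1 was at -0.52 ± 0.14 (limma adjusted p = 0.045), with resilient arrays at 10.81, 10.53 and 10.86 and control arrays at 11.00 and 11.51. Cox7a1 was at -0.33 ± 0.07 (limma adjusted p = 0.009), with resilient arrays at 7.23, 7.25 and 7.18 and control arrays at 7.57 and 7.54. Neither gene overlapped between the 2 groups, and the share of all genes without overlap there is not given here. The Atp5a1 call held in 2 of 5 fits with 1 array left out and was lost without right control replicate 2 (-0.26) or right resilient replicate 2 (-0.42) or 3 (-0.58), and the Cox7a1 call held in 3 of 5 and was lost without either right control array (-0.31 and -0.34). In complex IV as a whole, 11 of 13 members were below 0 on that side, with a median of -0.11.

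In susceptible mice, 2 of 69 were called on the left, both lower, where 2.33% of all genes were called lower and 4.24% in all. Ndufb2 was at -0.41 ± 0.09 (limma adjusted p = 0.0092), with susceptible arrays at 8.70, 8.58 and 8.54 and control arrays at 9.15 and 8.87. Cox7b was at -0.32 ± 0.09 (limma adjusted p = 0.042), with susceptible arrays at 9.13, 9.01 and 9.30 and control arrays at 9.50 and 9.44. With 1 array left out, the Ndufb2 call held in 4 of 5 fits and was lost without left control replicate 1 (-0.26), and the Cox7b call held in 1 of 5, that without left susceptible replicate 3. On the right, 0 of 69 were called, where 4.88% of all genes were. An unadjusted p below 0.05 was found there for 8 of 69 members and for 1552 of 8419 genes, a smaller share of the members.

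A call in one of these comparisons and not in another does not show that the groups or sides differ. Ndufb5 was at -0.55 and -0.35 in resilient mice on the left and right and at -0.47 and -0.26 in susceptible mice. Atp5a1 was at -0.45, -0.52, -0.33 and -0.35 in the same order, and Uqcrb at -0.27, -0.33, -0.28 and -0.25. Uqcrc2 was above 0 in all 4, from 0.12 to 0.22.

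**Figure D4:**
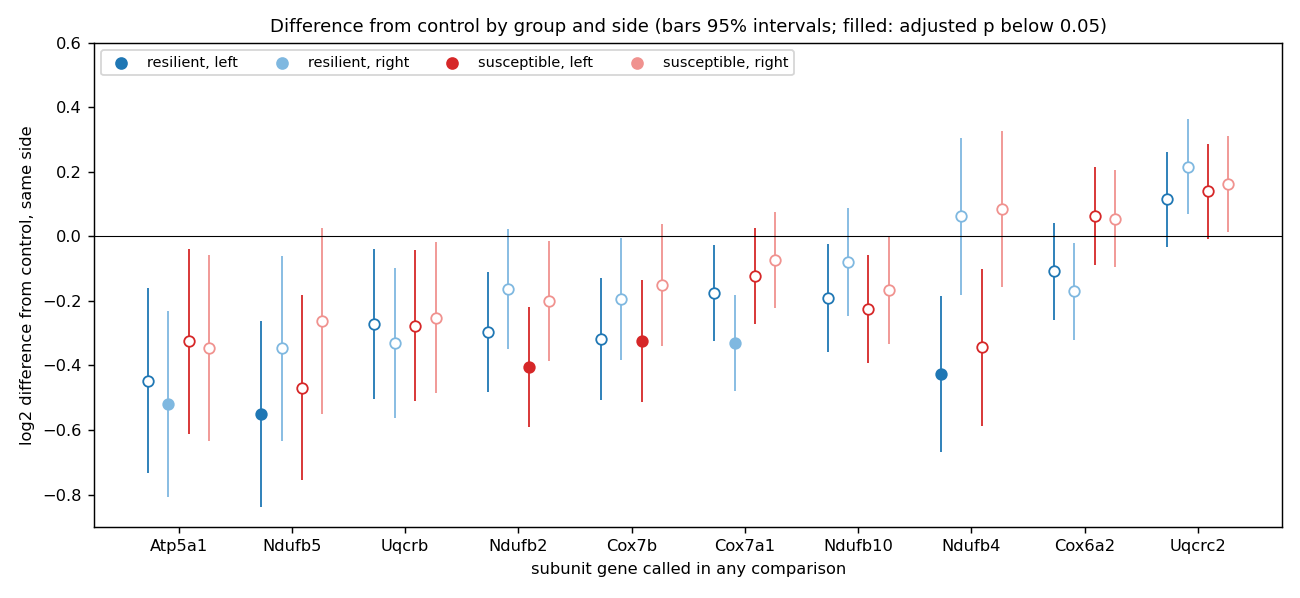
Log2 difference from the control mice of the same side for the 10 members called in any comparison, by defeated group and side; bars are 95% intervals and filled circles have an adjusted p below 0.05. Ndufb4 is below 0 on the left and above 0 on the right in both groups of defeated mice.

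The same genes often stood at the ends of a complex. In complex III the lowest was Uqcrb and the highest Uqcrc2 in all 4 comparisons with control, and in complex II the lowest was Sdhd, from -0.33 to -0.19, and the highest Sdhc, from 0.02 to 0.11. In complex I the lowest was Ndufb5 in all 4, and the highest was Ndufs6 (0.13), Ndufa4 (0.17), Ndufa10 (0.18) and Ndufa5 (0.19) in turn. Another detected probe of Ndufa5 had the opposite sign on the right in susceptible mice. In complex V the lowest was Atp5a1 in all 4, and the highest was Atp5c1 on the left in both groups, at 0.16 and 0.15. In complex IV the lowest was Cox7b on the left in both groups (-0.32 each), Cox7a1 on the right in resilient mice (-0.33) and Cox6c on the right in susceptible mice (-0.18), and Cox6b1 was highest in the first 3 of these, from 0.07 to 0.16. Another detected probe of Cox6b1 had the opposite sign on the left in both groups.

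Susceptible and resilient mice were compared over both sides. Only 1 of 69 was called, Cox6a2, which was higher in susceptible mice, where 0.594% of all genes were called higher and 1.76% in all. The median over members was 0.03, with 45 values above 0 and 24 below, against 0.00 over all genes. Cox6a2 codes for the heart and muscle isoform of subunit 6a, which in the mouse brain is known from parvalbumin interneurons.

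Cox6a2 was at 8.86, 8.99 and 9.04 on the left and 8.84, 8.93 and 8.93 on the right in resilient mice, and at 9.10, 9.22 and 9.09 on the left and 9.07, 9.25 and 9.06 on the right in susceptible mice. Every susceptible array was above every resilient one. The share of all genes that behaved so is not given here. Cox6a2 is described because it was called, so the separation adds no support to the call. Of the 4 control arrays, at 9.04, 9.10, 9.04 and 9.11, 2 lay inside the susceptible range and the 2 at 9.04 below it, beside the highest resilient array. The difference was 0.20 ± 0.05 (limma adjusted p = 0.02), and the call was lost, at 0.17 to 0.18, without left or right resilient replicate 1 or left or right susceptible replicate 2. Pvalb, which marks those interneurons, was higher by 0.24 in the same comparison, the 1 called of 5 interneuron markers, and all 7 oligodendrocyte markers were lower, with a median of -0.36. Both blood genes were called higher, Hba-a1 at 0.28 and Alas2 at 0.27. Of 5 meningeal fibroblast markers, Slc13a4 (-0.23) and Gjb2 (-0.19) were called lower. The part of these in the Cox6a2 value was not tested.

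Ndufa6, an accessory subunit of complex I, had the largest difference between susceptible and resilient mice, at 0.21, and was not called. It was at 11.29, 11.61 and 11.63 on the left and 11.36, 11.57 and 11.71 on the right in resilient mice and at 11.59, 11.84 and 11.86 and 11.55, 11.80 and 11.78 in susceptible mice. On each side replicate 1 was the lowest of the 3 in both groups. Replicate 1 stands among the first 8 arrays of the table, and with position in the table as a block Ndufa6 was called.

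Of the members 11 of 80 were not detected on every array by any probe and were not tested. Cox4i2, Cox7b2, Cox8c and Ndufs1 were detected on 0 arrays, Atp5k and Uqcrq on 1 each, Cox8b on 4, Ndufab1 on 7 and Uqcrfs1 on 11, while the better probes of Ndufb11 and Cox6b2 were detected on 9. Several of these are isoforms of lung, testis or muscle (Cox4i2, Cox6b2, Cox7b2, Cox8b, Cox8c), but Ndufs1, Ndufab1, Uqcrfs1 and Uqcrq code for subunits that every working chain needs, so an undetected probe says nothing of the gene's expression.

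Members with several probes did not always give the same sign. Of the 11 tested members with more than 1 detected probe, 5 had probes of both signs in defeated against control mice (Cox6a1, Cox6b1, Ndufa5, Ndufa8 and Ndufc1). The probe used was the brightest one.

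Other genes of the pathway were counted in defeated against control mice, where 5.96% of all genes were called lower and 5.27% higher. Cytochrome c, Cycs, the carrier between complexes III and IV, was lower at -0.23, and cytochrome c1, Cyc1, was not called. Of 22 assembly factors 1 was higher, the copper chaperone Cox17 at 0.15, and 2 were lower, Cox11 at -0.18 and Sdhaf2 at -0.14. Of 12 citric acid cycle genes 3 were lower, Dld (-0.29), Mdh2 (-0.25) and Sucla2 (-0.19), and 0 were higher.

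Of 12 glycolysis genes 1 was higher (Pfkp, 0.17) and 1 lower (Aldoa, -0.19), and of 70 genes of the mitochondrial ribosome 2 were higher and 1 lower. Among 9 regulators of mitochondrial biogenesis, Ppargc1b was higher at 0.18, and the 3 pyruvate dehydrogenase and carrier genes and the 3 genes of the ATP synthase inhibitor (Atpif1) and of the ADP/ATP and phosphate carriers tested (Slc25a5 and Slc25a3) had 0 calls. The medians of these lists lay between -0.14 and 0.03, against 0.01 over all genes. Between left and right in susceptible mice none of these lists had a call.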

How the data were processed

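The authors scanned the arrays with GenomeStudio 1.0.6 and deposited, for each probe and array, a mean intensity that was neither logged nor background-corrected (51.9 to 37310). Beside it they deposited a detection score, a fraction from 0 to 1, and 1 minus the score was taken as the detection p. The authors also deposited normalized log2 values made with lumi (6.91 to 15.0), whose version and settings are not given in the sources used here; they ranked probes within each array as the intensities did and served as an alternative. Probe genes came from the platform annotation, which named 23978 probes with 1 symbol each and left 1719 without.

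Intensities were taken to log2 and quantile normalized in limma 3.58.1 (R 4.3.3). Probes needed a detection p of 0.05 or less on all 16 arrays (11922 probes), and the probe with the highest mean stood for its gene. One model with 6 groups was fitted with lmFit and eBayes (10 residual and 16.0 prior degrees of freedom), 11 comparisons were taken from it, and p-values were adjusted over 8419 genes. All deposited columns were mapped to arrays by their names. The methods call the arrays biological replicates, but neither they nor the labels say that replicates came from separate pools, so the spread may in part be technical, and the number of arrays limits the precision. The procedure was tested on simulated data.

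Members and lists were chosen with earlier results of these data known. Named with values are the called members, the brightest and the most extreme member of each complex, isoforms of one subunit, core subunits of complex I, complex II, and members not detected. Atp5e and Ndufb4 across all groups were also described after their values were seen. Promoters came from RefSeq and figures from matplotlib 3.10.9 in Python 3.11.15.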

Additional observations from a re-analysis of the deposited data

Results flagged for a closer look

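Some probes that the comparisons did not use, because their gene had a brighter probe, passed the threshold when all named probes were tested (limma, Benjamini-Hochberg). A second probe of Ndufa5, an accessory subunit of the complex I matrix arm, was at -0.43 in resilient against control mice on the left, at -0.45 in susceptible against control mice on the left and at -0.38 in defeated against control mice (adjusted p = 3.0e-04), whereas the probe used was at 0.06, 0.06 and 0.10. A second probe of Cox6a1 was at -0.30 in susceptible against control mice on the left, where the probe used was at 0.10. A second probe of Ndufs4, also an accessory subunit of complex I, was at -0.18 in defeated against control mice, where the probe used was at -0.03. All of these probes were detected on 16 arrays. Which transcripts each probe matches was not analysed here.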

How the results depend on the processing

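Numbers of members called under other choices are given here for resilient against control on the left and on the right, susceptible against control on the left, defeated against control, and susceptible against resilient mice, where the main counts were 2, 2, 2, 8 and 1. The share of all genes called in the same fits is not given beside them. The counts therefore describe how stable the calls were and not the members as a set. A shift of each array to one median gave 0, 0, 0, 19 (all lower) and 0, and put the median of all genes at -0.16 and that of the members at -0.20 in defeated against control mice; Uqcrc2 reversed there, to -0.0064 (adjusted p = 0.955). The deposited normalized values gave 0, 1 and 1 in the first 3. Normexp background correction gave 0, 1, 1, 5 and 0. The mean over the detected probes of a gene gave 0, 1 and 1 in the first 3, and a filter that needed detection in 1 group only gave 1 in the first. Array weights gave 5 in the first and 4 in the third. A trend with robust variance gave 0 in the first and 1 in the second. A fit on only the groups compared gave 4 in the first, 5 in the third and 1 for left against right in control mice (Ndufb4). For left against right in susceptible mice, cyclic loess and the left and right pair as a random block each gave 1 (Atp5pb).

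Position in the table (first or last 8 arrays) as a block gave 1, 1, 0, 1 and 2. The first 8 arrays alone gave 1 in the second, 0 in the third and 0 for susceptible against resilient, and 1 for left against right in control mice (Ndufb4), and the last 8 alone, an alternative added after the data were seen, gave 0 for susceptible against resilient. The causes were not tested. Leaving out each array in turn gave 0 to 4, 0 to 2, 0 to 3, 3 to 12 and 0 to 2, and 0 to 1 for susceptible against control on the right. Where 1 array was left in an arm it was assumed to vary like the other groups. The first count was 0 without left control replicate 1 or 2 or left resilient replicate 2 or 3 and 4 without left resilient replicate 1. The second was 0 without right control replicate 2 and 1 without right control replicate 1 or right resilient replicate 2 or 3. The third was 0 without left control replicate 1 and 1 without left control replicate 2 or left susceptible replicate 2. The fourth was 3 without left control replicate 1 and 4 without either right control array. The last was 0 without replicate 1 of either resilient side or right susceptible replicate 2, and 2 without left resilient replicate 3. The other comparisons kept 0 calls under every array left out.

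With the replicate number as a block (replicate block) the counts were 3, 2, 3, 10 and 2, with Cox6a2 and Ndufa6 called in the last. The numbers were not shown to pair arrays, since left and right residuals correlated at -0.02 to 0.34 and only 3 of 8 pairs were over 0.1. In defeated against control mice, Ndufb5 and Atp5a1 were called in 30 of 32 alternatives each, Cox7b and Ndufb2 in 29, Cox7a1, Uqcrb and Uqcrc2 in 27 and Ndufb10 in 24. Those 32 include the settings that dropped Cox7a2l, or Cox7a2l and Ndufs5-ps, from the members. These settings kept the main fit, in which neither gene was called, so they could not change a count and repeat the main result.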
